A study of Neotoma stephensi and Rattus norvegicus with 6 samples.

Results

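The genes described here encode the enzymes and regulators of cholesterol, fatty acid and triglyceride synthesis. They were chosen as a list of 38 symbols, all of which were found among the 15481 genes of the deposited count files. Transcript abundance was measured by RNA-Seq in the foregut, the fornix ventricularis of the stomach, of 3 Stephens' woodrats (Neotoma stephensi) and 3 Sprague Dawley lab rats (Rattus norvegicus), all female. The woodrats were caught in the wild and ate juniper foliage until dissection, whereas the lab rats were purchased and kept on standard chow, so species, diet and origin cannot be told apart. The comparison asks how the tissue differs between a rodent with a dense foregut microbial community and a rodent without it. Every animal had between 5439642 and 7932637 counted reads, with lab rat 2 the shallowest and woodrat 3 the deepest. The p-values come from 3 animals against 3 and set the species difference against the spread between animals of a species.

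Cholesterol is built from acetyl-CoA through the mevalonate pathway, which ends in farnesyl pyrophosphate, and through a sterol branch that starts with squalene. Most of these enzymes are under the control of the SREBP transcription factors, which Scap escorts to the Golgi for activation and which the Insig proteins hold back in the endoplasmic reticulum when sterols are plentiful. Acetyl-CoA also feeds fatty acid synthesis, and the fatty acids are desaturated and joined to glycerol to give triglycerides. In a stratified squamous epithelium such as the rodent forestomach, cholesterol and fatty acids are known as building blocks of the lipids between the cornified cells.

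Cholesterol synthesis held 9 of the 14 genes that differed between the species. Of the 17 enzymes of this arm, 9 (52.9%) were less abundant in woodrats, against 9.71% of all genes tested. Among them, Fdps was 9.65-fold and Lss 4.46-fold lower in woodrats. The only enzyme of the arm with a higher mean in woodrats, Dhcr7, did not pass the test. Of the 15 tested enzymes of fatty acid, desaturase and triglyceride synthesis, 2 were less abundant in woodrats and Acacb alone was more abundant, a share of 20% called against 20.0% of all genes tested. Of the 5 regulators, Scap and Insig1 (40%) were less abundant. Levels are in CPM, the reads of a gene scaled to library size after TMM normalization in edgeR. Differences are log2 ratios of woodrats over lab rats, printed ± their standard error, so that a value below 0 means lower abundance in woodrats. A gene was called at a false discovery rate (FDR) below 0.01 in the quasi-likelihood test of edgeR, which was run on all 12603 genes that reached 1 CPM in 3 or more animals.

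Of the 38 genes, 37 passed that abundance filter, and Scd1 did not. Of these 37, 14 (37.8%) were called, against 20.0% of all genes tested. By direction, 13 (35.1%) were lower in woodrats, against 9.71% of all genes, and 1 (2.7%) was higher, against 10.3%. The median log2 ratio of the 37 genes was -1.10, and that of all tested genes was 0.03. All 3 woodrats lay below all 3 lab rats for 20 of the 37 genes, an arrangement found for 27.4% of all tested genes. All 3 woodrats lay above the lab rats for 4 of the 37, against 28.8% of all tested genes, and separation in either direction was seen for 56.2% of them. All 14 calls kept their direction in the 14 alternative fits, but their number depended on the scaling and on which animals were included. It was 9 with libraries scaled to total counts only and 8 with libraries scaled to squamous markers. It was 1 without woodrat 2, 4 without lab rat 1, 5 without lab rat 2, 7 without lab rat 3, 10 without woodrat 1 and 17 without woodrat 3. Over all genes the calls also dropped, to 14.4% with total counts only and 14.6% with squamous scaling. They fell to 7.13% without woodrat 2 and 7.43% without lab rat 1.

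**Figure D1:**
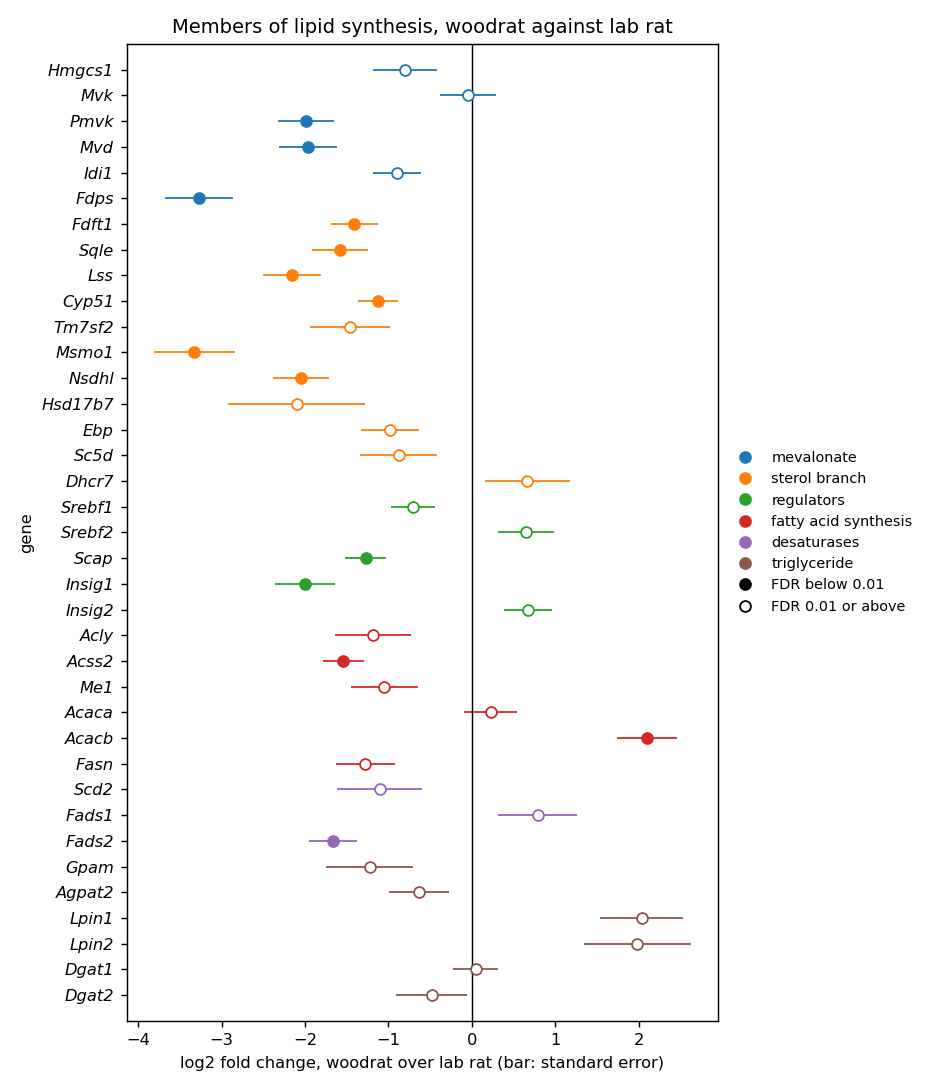
Log2 ratio of woodrats over lab rats (horizontal axis) for the 37 tested genes (vertical axis), coloured by role. Bars are standard errors, and filled points are at an FDR below 0.01. All 9 filled points of the mevalonate pathway and the sterol branch lie left of 0, from Msmo1 at -3.33 to Cyp51 at -1.12, and Acacb at 2.10 is the only filled point to the right.

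In the mevalonate pathway, 3 of 6 enzymes (50%) were called, all lower in woodrats, against 9.71% of all tested genes called lower. Fdps (ENSMUSG00000059743.11), which makes farnesyl pyrophosphate, had 66.4, 123 and 140 CPM in woodrats 1, 2 and 3 and 841, 877 and 1472 CPM in lab rats 1, 2 and 3. The highest woodrat was thus far below the lowest lab rat. Its mean was 110 ± 39 CPM (SD, n = 3) in woodrats and 1063 ± 354 CPM in lab rats, for a log2 ratio of -3.27 ± 0.41 (FDR = 0.00105). Pmvk (ENSMUSG00000027952.15), phosphomevalonate kinase, had 35.0, 39.7 and 35.7 CPM in woodrats and 102, 114 and 222 CPM in lab rats. The woodrats were nearly level, and lab rat 3 was well above the other lab rats. The log2 ratio of Pmvk was -1.99 ± 0.33 (FDR = 0.00298). Mvd (ENSMUSG00000006517.4), the decarboxylase that follows it, had 29.1, 45.4 and 59.3 CPM in woodrats and 167, 126 and 231 CPM in lab rats, again without overlap. The log2 ratio came to -1.96 ± 0.35 (FDR = 0.00354).

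The chosen enzymes of the mevalonate pathway that were not called, Hmgcs1, Mvk and Idi1, differed less. Hmgcs1, which makes HMG-CoA, had 110, 94.5 and 215 CPM in woodrats and 322, 245 and 165 CPM in lab rats. Woodrat 3 lay above lab rat 3, and the log2 ratio of -0.80 ± 0.39 did not pass the test (FDR = 0.128). Mvk, mevalonate kinase, ranged from 42.6 to 97.5 CPM in woodrats and from 66.3 to 96.9 CPM in lab rats, and its log2 ratio was -0.05 ± 0.33 (FDR = 0.918). Its direction turned without woodrat 1 (0.23) and without lab rat 3 (0.15). Idi1, the isomerase before Fdps, ranged from 15.5 to 23.4 CPM in woodrats and from 27.5 to 44.3 CPM in lab rats. The species did not overlap for Idi1, yet its log2 ratio of -0.89 had an FDR of 0.0381.

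In the sterol branch, 6 of 11 enzymes (54.5%) were called, all lower in woodrats, against 9.71% of all tested genes called lower. Msmo1 (ENSMUSG00000031604.9), the methylsterol monooxygenase, had 16.2, 31.4 and 66.8 CPM in woodrats and 393, 395 and 363 CPM in lab rats. The lab rats were close to one another, while the woodrats spread widely below them. The means were 38.1 ± 26.0 CPM and 384 ± 18 CPM (SD, n = 3), with a log2 ratio of -3.33 ± 0.49 (FDR = 0.00184). Nsdhl (ENSMUSG00000031349.4), a dehydrogenase of the same demethylation complex, had 13.5, 20.1 and 30.7 CPM in woodrats and 106, 88.0 and 72.2 CPM in lab rats. Its log2 ratio was -2.04 ± 0.34 (FDR = 0.00274). Lss (ENSMUSG00000033105.11), which closes the sterol rings, had 12.5, 28.3 and 30.6 CPM in woodrats and 124, 103 and 93.0 CPM in lab rats. Woodrat 1 was the lowest animal for Lss, and the log2 ratio was -2.16 ± 0.35 (FDR = 0.00270).

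The remaining called enzymes of the sterol branch showed smaller differences. Sqle (ENSMUSG00000022351.13), squalene epoxidase, had 63.1, 97.7 and 151 CPM in woodrats and 303, 297 and 331 CPM in lab rats. On the log2 scale the ratio was -1.58 ± 0.34 (FDR = 0.00744). Fdft1 (ENSMUSG00000021273.9), squalene synthase, had 56.6, 65.0 and 99.5 CPM in woodrats and 201, 173 and 214 CPM in lab rats, with every woodrat below every lab rat. This gave a log2 ratio of -1.41 ± 0.28 (FDR = 0.00567). Cyp51 (ENSMUSG00000001467.5), the lanosterol demethylase, had 155, 130 and 139 CPM in woodrats and 337, 322 and 267 CPM in lab rats. Both species were tightly grouped for Cyp51, and its log2 ratio was the smallest of the 9, at -1.12 ± 0.24 (FDR = 0.00733).

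The other sterol branch enzymes did not pass the test. Hsd17b7, the sterol ketoreductase, had 2, 14 and 97 reads in woodrats 1, 2 and 3, or 0.391, 1.94 and 11.5 CPM, and 23.6, 16.7 and 21.4 CPM in lab rats. The woodrat values differed widely among themselves while all stayed below the lab rats. The log2 ratio of Hsd17b7 was -2.10 ± 0.82 (FDR = 0.0710), and without woodrat 3 it was -4.03 (FDR = 0.00141). Tm7sf2 and Ebp, a sterol reductase and a sterol isomerase, also had every woodrat below every lab rat, with log2 ratios of -1.46 (FDR = 0.0400) and -0.98 (FDR = 0.0527). Sc5d, a sterol desaturase, overlapped between the species (log2 ratio -0.88, FDR = 0.158), and without woodrat 3 its log2 ratio was -1.51 (FDR = 0.0147). Dhcr7, which catalyses the last step to cholesterol in the Kandutsch-Russell pathway, was the only enzyme of the arm with a positive value. It had 23.4, 40.9 and 105 CPM in woodrats and 40.7, 41.7 and 24.5 CPM in lab rats. Only woodrat 3 lay above all lab rats, and without it the log2 ratio of 0.66 (FDR = 0.322) became -0.14.

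**Figure D2:**
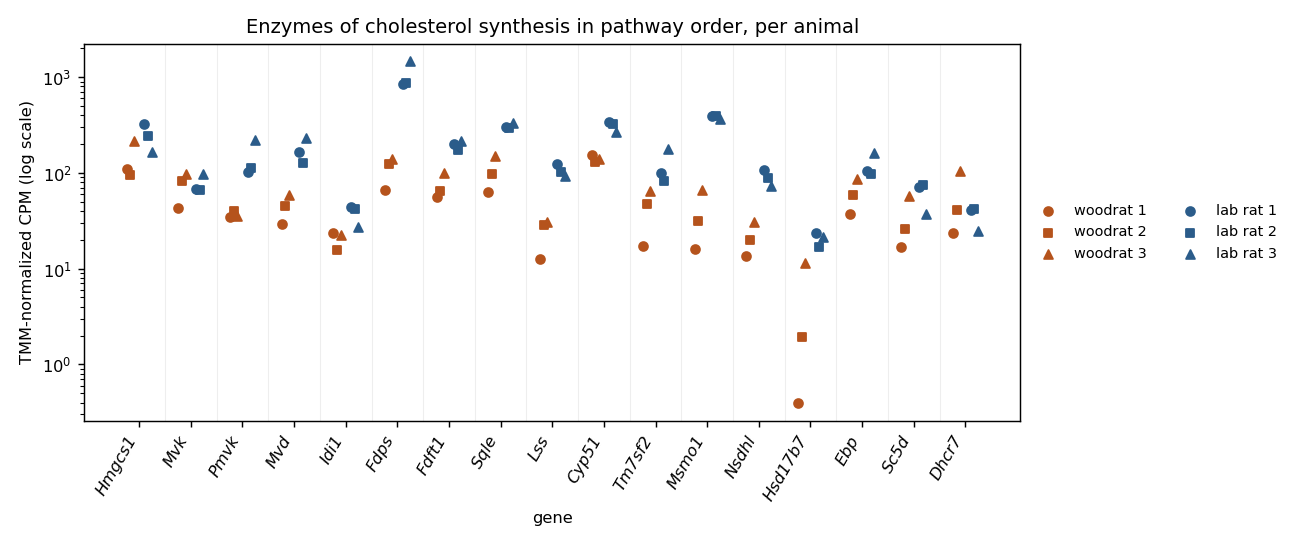
TMM-normalized CPM on a log scale (vertical axis) of the 17 enzymes of cholesterol synthesis in pathway order (horizontal axis), with a point for each animal. For 13 of the 17 enzymes all 3 woodrats lie below all 3 lab rats, an arrangement found for 27.4% of all tested genes. The widest gaps are those of Fdps and Msmo1, and Hmgcs1, Mvk, Sc5d and Dhcr7 overlap.

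The calls in this arm differed in how they held when an animal was left out. Fdps stayed below an FDR of 0.01 in all 6 fits that left out 1 animal and in all 14 alternatives, with a highest FDR of 0.00692. Without woodrat 2 the other 8 enzymes had FDR values from 0.0102 to 0.0410. Without lab rat 1, 6 of the 9 lost the call (0.0108 to 0.0348), as did 4 without lab rat 2 (0.0105 to 0.0318) and 4 without lab rat 3 (0.0103 to 0.0240). Without woodrat 1, Fdft1, Sqle and Cyp51 had FDR values from 0.0121 to 0.0138, and without woodrat 3 Cyp51 had 0.0164. The log2 ratios moved less than the FDR values. That of Msmo1 stayed between -4.01 and -2.97 over the alternatives, and that of Fdps between -3.49 and -2.96.

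The woodrats differed among themselves in this arm more than the lab rats did. Woodrat 1 was the lowest woodrat and woodrat 3 the highest for 13 of the 17 enzymes (76.5%), and this held for 10 of the 11 enzymes of the sterol branch. Among all tested genes, 27.2% had that order. The median SD of log2(CPM + 0.5) over the 17 enzymes was 0.62 in woodrats and 0.37 in lab rats, against 0.35 and 0.36 over all tested genes. Summed over the 17 enzymes, woodrats 1, 2 and 3 had 719, 950 and 1412 CPM, and lab rats 1, 2 and 3 had 3350, 3162 and 3974 CPM. The mean sum was 3.40-fold higher in lab rats, and the highest woodrat was below the lowest lab rat.

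Marker genes of other cell types also differed between the species and among the woodrats. In bulk tissue, fewer cells of a type and less RNA per cell cannot be told apart. The 8 smooth muscle markers, all in the files, summed to between 34002 and 109584 CPM in woodrats and between 9594 and 17560 CPM in lab rats, with woodrat 1 the highest. For 3 of these 8 markers (Lmod1, Synpo2 and Myocd, 37.5%) the abundance was higher in woodrats at an FDR below 0.01, against 10.3% of all genes. Myh11, Des and Cnn1 had FDR values from 0.0102 to 0.0109. All 8 had a positive log2 ratio, and for 7 every woodrat lay above every lab rat, against 28.8% of all genes. The 12 squamous epithelial markers, all in the files, summed to 18688, 35396 and 42680 CPM in woodrats 1, 2 and 3 and to 25028, 25439 and 41990 CPM in lab rats. Woodrat 1 thus had the lowest epithelial sum, and the species overlapped. Single markers did differ, with Krt4, a keratin of non-cornified squamous epithelium, higher in woodrats and Ivl (involucrin) and Krtdap lower.

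The enzymes were also set against the epithelial sum. Per 1000 CPM of squamous markers, the 17 enzymes amounted to 38.5, 26.8 and 33.1 CPM in woodrats 1, 2 and 3 and to 134, 124 and 94.6 CPM in lab rats, a 3.59-fold difference of the means. Krt4 and Krt13 made up much of the marker sum in woodrats, and the difference was 2.65-fold without Krt4 and 3.84-fold without Krt4, Ivl and Krtdap. With the libraries scaled to the counts of the squamous markers, 7 of the 17 enzymes were called in place of 9, and of the 37 genes 8 were called, all lower in woodrats. Fdft1 (FDR = 0.0394), Sqle (FDR = 0.0138) and Cyp51 (FDR = 0.144) lost the call, and Hsd17b7 (FDR = 0.00197) gained it. Scap (FDR = 0.0685), Acss2 (FDR = 0.060), Acacb (FDR = 0.0149) and Fads2 (FDR = 0.0417) also lost it. The part of cell composition in the differences was not tested. The 9 leukocyte markers were all in the files, and 6 were tested. The 9 summed to between 9.18 and 21.4 CPM in woodrats and between 41.8 and 81.3 CPM in lab rats. All 6 tested had a negative log2 ratio. Of these, 4 (66.7%) were called lower in woodrats at an FDR below 0.01, against 9.71% of all genes tested. Of the 10 adipocyte markers, 6 were in the files and 4 were tested. The 6 summed to between 313 and 512 CPM in woodrats and between 114 and 157 CPM in lab rats. Most of the woodrat sum came from Plin4, which was called higher in woodrats (FDR = 0.000711). For Fabp4 (FDR = 0.0181) and Pparg (FDR = 0.136), by contrast, every woodrat lay below every lab rat. Plin1, the coat protein of fat cell droplets, reached at most 3.35 CPM in any animal. The files hold 0 genes without woodrat reads, so a marker missing from them may still have lab rat reads. Fibroblast markers summed to between 1055 and 2532 CPM in woodrats and between 2004 and 2581 CPM in lab rats, and endothelial markers to between 48.4 and 97.9 and between 91.5 and 103 CPM. Of the 10 gastric gland markers, 7 were in the files, their sum was at most 11.5 CPM in any animal, and Muc6, Tff2 and Pgc were at or near 0. Atp4a, a proton pump subunit of acid-secreting cells, lay between 5.69 and 9.76 CPM in all animals. Muc5ac, a surface mucin, was called higher in woodrats (FDR = 0.00305), with 3.32, 1.67 and 3.91 CPM against 0 reads in every lab rat. The part of leukocytes, fibroblasts, endothelium and glandular cells was not tested.

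**Figure D3:**
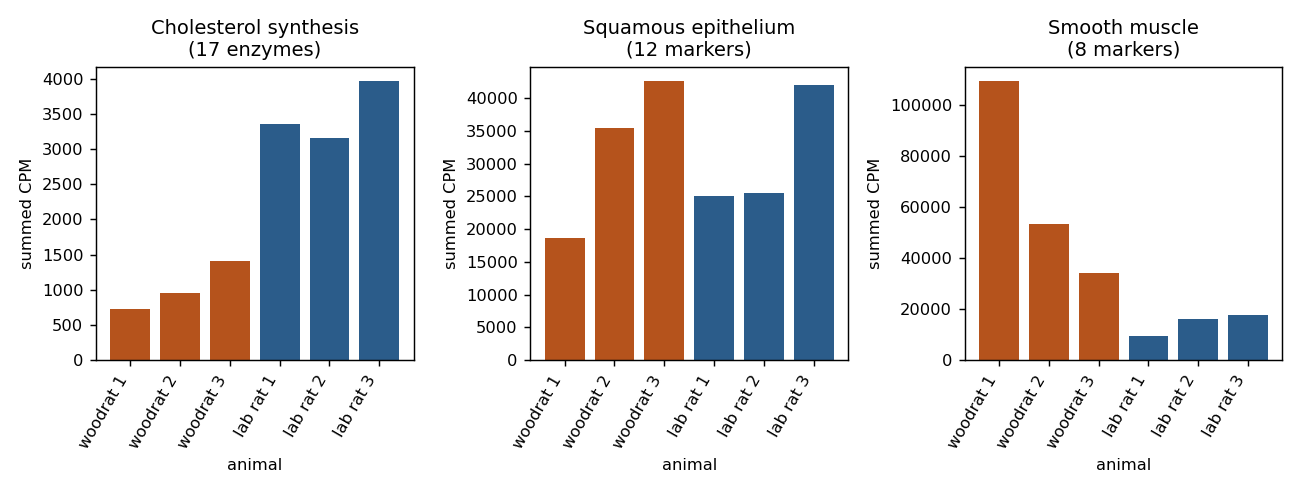
Summed CPM (vertical axis) per animal (horizontal axis) of the 17 enzymes of cholesterol synthesis, the 12 squamous epithelial markers and the 8 smooth muscle markers. The enzymes reach at most 1412 CPM in woodrats and at least 3162 CPM in lab rats, the squamous markers overlap, and smooth muscle markers are highest in woodrat 1 at 109584 CPM.

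Among the regulators of the sterol pathway, the escort protein and a retention protein were lower in woodrats. Scap (ENSMUSG00000032485.13) had 44.7, 65.4 and 65.5 CPM in woodrats and 125, 153 and 146 CPM in lab rats. The log2 ratio came to -1.27 ± 0.25 (FDR = 0.00522). Insig1 (ENSMUSG00000045294.11), itself a well known target of the SREBP factors, had 6.84, 6.94 and 9.48 CPM in woodrats and 40.3, 34.7 and 18.3 CPM in lab rats. Lab rat 3 was the lowest of its species and still above every woodrat, and the mean was 4.0-fold lower in woodrats (FDR = 0.00387). Both calls were lost without woodrat 1 (FDR from 0.0109 to 0.0117), woodrat 2 (0.0186 to 0.0194), lab rat 1 (0.0157 to 0.0168) and lab rat 2 (0.0160 to 0.0236), and that of Scap without lab rat 3 (0.0135).

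The transcription factors themselves were not called. Srebf2, the factor linked mainly to sterol genes, had 104, 99.7 and 199 CPM in woodrats and 91.8, 101 and 63.6 CPM in lab rats, with a log2 ratio of 0.65 ± 0.33 (FDR = 0.153). Srebf1, linked mainly to fatty acid genes, ranged from 35.9 to 63.7 CPM in woodrats and from 78.0 to 86.2 CPM in lab rats. All woodrats were below all lab rats for Srebf1, with a log2 ratio of -0.71 ± 0.26 (FDR = 0.0588). Insig2, the second retention protein, ranged from 12.2 to 16.6 CPM in woodrats and from 7.94 to 10.3 CPM in lab rats, the opposite order from Insig1. Its log2 ratio was 0.67 ± 0.28 (FDR = 0.0900).

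Ratios between related genes within an animal do not depend on how the libraries were scaled. The ratio of Insig1 to Insig2 counts was 0.473, 0.568 and 0.571 in woodrats and 3.92, 4.38 and 2.07 in lab rats. Insig2 thus had more counts than Insig1 in every woodrat and fewer in every lab rat. The ratio of Srebf1 to Srebf2 was 0.346, 0.524 and 0.321 in woodrats and 0.939, 0.833 and 1.23 in lab rats, also without overlap. That of Acaca to Acacb was 3.26, 2.27 and 4.12 in woodrats and 9.93, 18.9 and 8.24 in lab rats, and that of Fads1 to Fads2 was 0.441, 0.413 and 0.582 in woodrats and 0.0835, 0.130 and 0.0418 in lab rats. Each of these 4 ratios gave p = 0.1 in a two-sided exact permutation test, the smallest p that 3 animals against 3 allow, or 0.15 after adjustment over the 6 ratios computed. The ratios were added after the values were seen, and this p states only that the species did not overlap. The ratios of Lpin1 to Lpin2 (exact p = 0.9, adjusted 0.9) and of Dgat1 to Dgat2 (exact p = 0.4, adjusted 0.48) overlapped between the species. The genes differ in length, so a ratio of counts is not a ratio of transcript numbers. Both species were aligned to mouse, so divergence of either gene from mouse can also shift a ratio between the species.

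**Figure D4:**
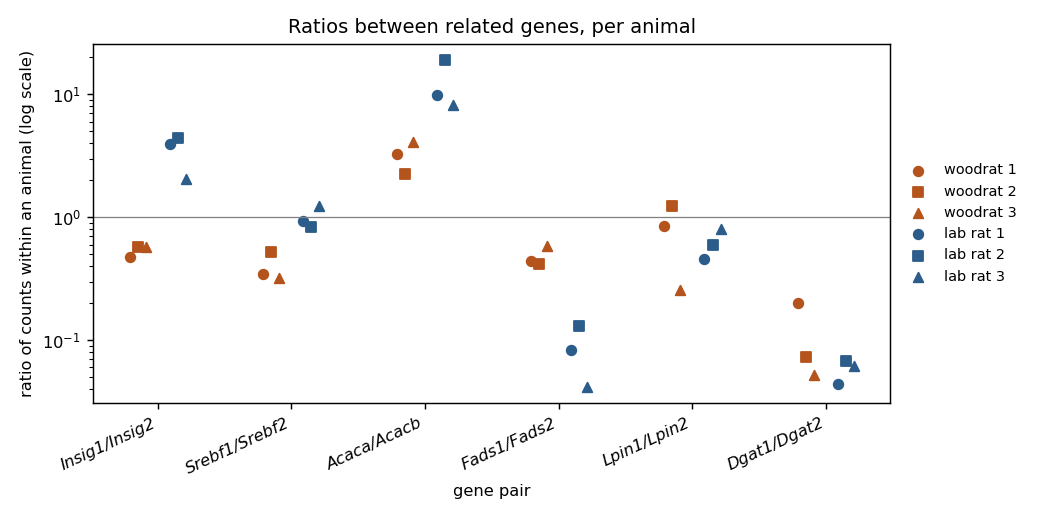
Ratio of the counts of related genes within each animal on a log scale (vertical axis) for 6 gene pairs (horizontal axis), with a line at a ratio of 1. The woodrats lie apart from the lab rats for the Insig, Srebf, Acaca/Acacb and Fads pairs, with Insig1/Insig2 below 1 in all woodrats and above 1 in all lab rats, and the Lpin and Dgat pairs overlap.

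In fatty acid synthesis, 2 of 6 genes were called, 1 in each direction, where 9.71% of all tested genes were called lower and 10.3% higher in woodrats. Acss2 (ENSMUSG00000027605.17), the cytosolic enzyme that turns acetate into acetyl-CoA, had 24.0, 22.3 and 16.1 CPM in woodrats and 58.6, 57.9 and 64.9 CPM in lab rats. The animals of each species were close together, and the log2 ratio was -1.54 ± 0.25 (FDR = 0.00246). Acacb (ENSMUSG00000042010.15), the acetyl-CoA carboxylase placed at mitochondria and known for restraining fatty acid oxidation, had 15.0, 20.5 and 15.6 CPM in woodrats and 5.71, 2.81 and 3.27 CPM in lab rats. It was 4.28-fold higher in woodrats, a log2 ratio of 2.10 ± 0.37 (FDR = 0.00341). The Acacb values rest on 77, 148 and 132 reads in woodrats and on 46, 17 and 17 in lab rats. Acaca, the cytosolic carboxylase of fatty acid synthesis, ranged from 46.6 to 64.4 CPM in woodrats and from 27.0 to 56.7 CPM in lab rats. On the log2 scale the ratio was 0.22 ± 0.32 (FDR = 0.600) and turned to -0.04 without lab rat 3.

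The 3 other genes of fatty acid synthesis had lower means in woodrats without passing the test. Fasn, fatty acid synthase, had 48.6, 77.4 and 130 CPM in woodrats and 225, 197 and 198 CPM in lab rats, with no overlap. This gave a log2 ratio of -1.28 ± 0.35 (FDR = 0.0219). Me1, malic enzyme, which supplies NADPH, had 115, 194 and 354 CPM in woodrats and 502, 477 and 398 CPM in lab rats, for a log2 ratio of -1.05 (FDR = 0.0663). Every woodrat was below every lab rat for Me1. Acly, ATP citrate lyase, had 75.4, 102 and 241 CPM in woodrats and 391, 346 and 215 CPM in lab rats, for a log2 ratio of -1.18 (FDR = 0.0672). Without woodrat 3, Fasn, Me1 and Acly had log2 ratios of -1.71 (FDR = 0.00381), -1.57 (FDR = 0.00859) and -1.84 (FDR = 0.00528). Without woodrat 1 these log2 ratios were -0.996, -0.742 and -0.887, and without woodrat 2 their FDR values were 0.0726, 0.166 and 0.178.

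Of the desaturases, Fads2 was lower in woodrats. Fads2 (ENSMUSG00000024665.7), which starts the making of long polyunsaturated fatty acids, had 28.3, 15.1 and 18.1 CPM in woodrats and 68.4, 66.3 and 59.9 CPM in lab rats. The log2 ratio came to -1.67 ± 0.28 (FDR = 0.00317). Fads1, which acts later in the same chain, ranged from 6.25 to 12.5 CPM in woodrats and from 2.50 to 8.60 CPM in lab rats, and its log2 ratio of 0.79 (FDR = 0.217) had the opposite sign. Scd2, a stearoyl-CoA desaturase that makes monounsaturated fatty acids, had 11.7, 16.5 and 20.8 CPM in woodrats and 41.3, 53.1 and 11.4 CPM in lab rats. Lab rat 3 was the lowest of all 6 animals, while lab rats 1 and 2 were the highest, and the log2 ratio was -1.10 (FDR = 0.116). Scd1 had 1, 0 and 1 reads in woodrats and 1, 2 and 0 in lab rats, which was not detectable at this depth, since 3 reads corresponded to between 0.355 and 0.586 CPM in these libraries. Reads of these close paralogs can be split between them in an alignment to mouse sequences, so each is uncertain. Their sum including Scd3 was 67, 126 and 212 reads in woodrats and 375, 378 and 69 in lab rats.

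The called genes of fatty acid synthesis and desaturation also depended on the animals. Acss2, Acacb and Fads2 lost the call without woodrat 2 (FDR from 0.0128 to 0.0177) and without lab rat 2 (0.0108 to 0.0167). Without lab rat 1, Acss2 and Fads2 had 0.0111 and 0.0137, and without lab rat 3, Acacb and Fads2 had 0.0138 and 0.0101.

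In triglyceride synthesis, 0 of 6 genes were called by edgeR, against 20.0% of all genes tested. Lpin1, Lpin2 and Gpam had an unadjusted p below 0.05. Gpam, the last of these, ranked 6115 by p among the 12603 genes tested, so values this low were common. DESeq2 called Lpin1 and Lpin2, and it called 31.1% of all genes tested. Lpin1, a phosphatidate phosphatase, had 10.4, 30.0 and 14.9 CPM in woodrats and 5.09, 5.95 and 2.31 CPM in lab rats. Every woodrat was above every lab rat, with a log2 ratio of 2.04 ± 0.50 (FDR = 0.0133), and with an animal left out it lay between 1.46 without woodrat 2 (FDR = 0.0561) and 2.31 without woodrat 1 (FDR = 0.00843). Lpin2, its relative, had 12.1, 24.2 and 58.8 CPM in woodrats and 11.0, 9.92 and 2.89 CPM in lab rats, for a log2 ratio of 1.98 ± 0.64 (FDR = 0.0381). Woodrat 1 lay only just above lab rat 1 for Lpin2, and without woodrat 3 the log2 ratio of Lpin2 was 1.18 (FDR = 0.113). Dgat2, which adds the last fatty acid, had 105, 200 and 366 CPM in woodrats and 363, 297 and 279 CPM in lab rats. The species overlapped widely, and its log2 ratio was -0.48 ± 0.42 (FDR = 0.386).

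Dgat1, the other enzyme of that last step, ranged from 14.6 to 21.1 CPM in woodrats and from 15.9 to 20.0 CPM in lab rats. Its log2 ratio was 0.04 ± 0.27 (FDR = 0.910), with a sign that turned without woodrat 1, without lab rat 1 and with total counts as the scale. Gpam, the mitochondrial enzyme that starts glycerolipid synthesis, had 11.3, 9.85 and 29.0 CPM in woodrats and 54.9, 45.2 and 17.9 CPM in lab rats. Woodrat 3 was above lab rat 3, and the log2 ratio was -1.23 (FDR = 0.0919), or -1.90 without woodrat 3 (FDR = 0.0148). Agpat2, the acyltransferase that follows, was scarce in both species, between 3.79 and 8.67 CPM (log2 ratio -0.63, FDR = 0.187).

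**Figure D5:**
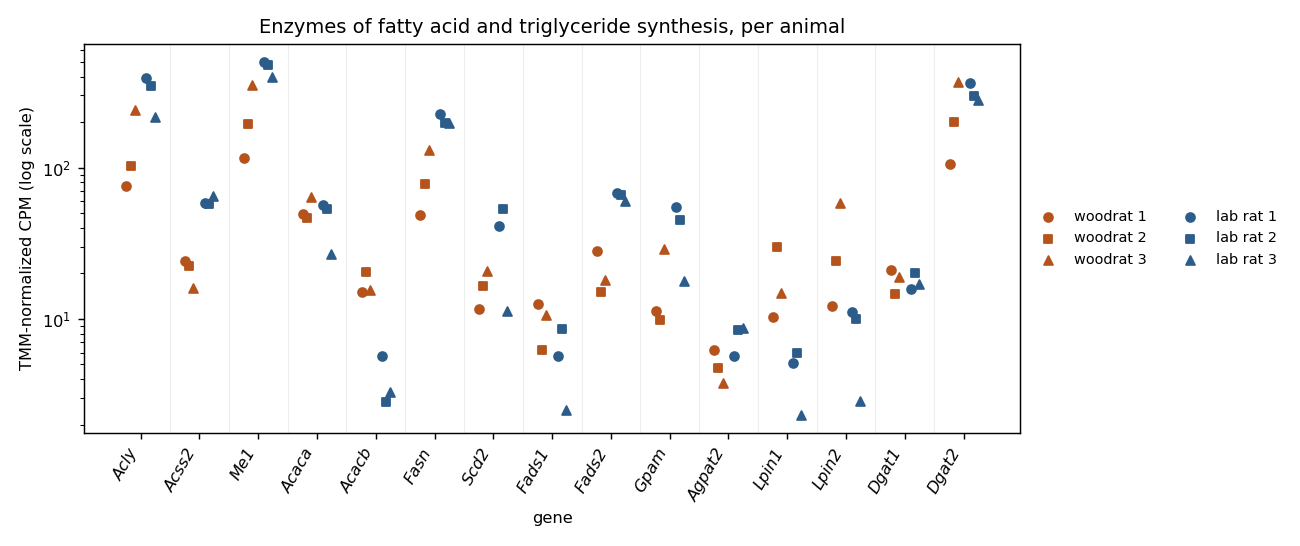
TMM-normalized CPM on a log scale (vertical axis) of the 15 tested enzymes of fatty acid, desaturase and triglyceride synthesis (horizontal axis), with a point for each animal. For Acss2, Me1, Fasn and Fads2 all woodrats lie below all lab rats, for Acacb, Lpin1 and Lpin2 all lie above, and the other 8 overlap. Among all tested genes, all woodrats lay below for 27.4% and above for 28.8%.

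A list of 56 other genes of sterol, fatty acid and triglyceride metabolism was examined beside the 38. Of these, 54 were in the files and 48 were tested, and 12 (25%) were called, 9 lower and 3 higher in woodrats, against 20.0% of all genes tested. Their median log2 ratio was -0.38. Of the 17 tested sterol genes on this list, 3 (17.6%) were called, and their median log2 ratio was -0.09. In sterol metabolism, Acat2, which joins acetyl-CoA units ahead of Hmgcs1, averaged 20.9 ± 5.4 CPM (SD, n = 3) in woodrats and 166 ± 7.5 CPM in lab rats. On the log2 scale the ratio was -2.99 ± 0.27 (FDR = 0.000334). Every woodrat was below every lab rat for Acat2. Ggps1, which diverts farnesyl pyrophosphate to protein prenylation, was higher in woodrats with a log2 ratio of 1.67 (FDR = 0.00990).

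Among the other fatty acid genes, Hsd17b12, a reductase of chain elongation, was lower in woodrats with a log2 ratio of -2.15 (FDR = 0.00657), and so was Mcat, of mitochondrial fatty acid synthesis, at -1.61 (FDR = 0.00399). Acsl5, an acyl-CoA synthetase, Slc25a1, the mitochondrial citrate carrier, and Mlx, a partner of carbohydrate-responsive transcription factors, were lower by smaller amounts, with log2 ratios from -1.30 to -1.20. Idh1, a cytosolic source of NADPH, was higher in woodrats at 1.34 (FDR = 0.00319). Of the glycerolipid genes, Agpat3 and Plin3 were lower, at -1.79 (FDR = 0.00197) and -1.32 (FDR = 0.00494). Mgll, which splits monoglycerides, had 69.5, 55.8 and 39.8 CPM in woodrats and 10.1, 15.7 and 6.16 CPM in lab rats. It was 5.15-fold higher in woodrats (log2 ratio 2.36 ± 0.38, FDR = 0.00264). Leaving out an animal gave between 2 and 11 calls on this list, with 2 without woodrat 2, 3 without lab rat 1, 3 without lab rat 2 and 5 without lab rat 3.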

How the data were processed

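Foregut RNA-Seq libraries of 3 woodrats and 3 lab rats were analysed, grouped by the sample labels. The deposited values are raw counts of reads that the authors assigned uniquely to a mouse gene. For these, polyA RNA was sequenced with strand kept, reads were quality-trimmed (Trimmomatic), mates that overlapped were joined (FLASH), and the result was matched by cross_match to the coding transcripts of GENCODE M7. The labels name the build mm9. Tool versions are not given in the sources used here. Because both species were aligned to mouse, divergence of a gene from mouse can change its count. The files hold 0 genes without woodrat reads and 809 without lab rat reads. The labels call all animals virgin, while the paper's methods leave this unknown for the woodrats.

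In R 4.3.3 with edgeR 4.0.16, genes under 1 CPM in more than 3 animals were dropped, TMM factors were computed, and species was tested with the quasi-likelihood F-test in its form before edgeR 4 (prior count 0.125, Benjamini-Hochberg adjustment over all tested genes). Standard errors are the log2 fold change divided by the square root of F. The fit was tested on simulated data. No 2 animals of a species agreed within sampling noise (chi-square per degree of freedom of at least 10.1).

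The members and gene lists were chosen with earlier results of these data known. Values of each animal are given for every called member and for the 2 most abundant members of each role. Those of Hsd17b7, Dhcr7, Fasn, Lpin1, Lpin2 and the ratios were added after the values were seen. Alternatives were a filter at 5 CPM or none, other scalings, DESeq2 1.42.0, the method of edgeR 4, the replicate number as a block, an FDR of 0.05, and each animal left out. Scaling to squamous markers, and the marker sums without Krt4, Ivl and Krtdap, were added after seeing the data. Promoter motifs and levels per length were not analysed here, since no reference was used, and no sequence or position is given. Some genes of the wider pathway list are counted in its totals but not reported here by name.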

Additional observations from a re-analysis of the deposited data

How the results depend on the processing

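The number of called genes among the 37 tested was 14, with 13 lower and 1 higher in woodrats. It was the same under a 5 CPM filter, no filter, DESeq2's size factors in edgeR and the quasi-likelihood method of edgeR 4. With total counts only it was 9 (8 lower). With the replicate block it was 2, with 2 lower and 0 higher, 2 in cholesterol synthesis, 0 in fatty acid, desaturase and triglyceride synthesis, and 2 among the other pathway genes. The deviations from the species mean correlated at -0.289, -0.0881 and -0.279 between a woodrat and a lab rat of equal number, so these animals share only a number. DESeq2 called 18, of which 3 were higher and 6 belonged to fatty acid, desaturase and triglyceride synthesis. Over all genes tested, DESeq2 called 31.1%, against 20.0% in the reported fit. That share was 14.4% with total counts only, 5.68% with the replicate block, 14.6% with squamous scaling and 7.13% to 20.8% with 1 animal left out. An FDR below 0.05 gave 19 members, 3 of them higher and 6 in the latter group, and 19 other pathway genes. Scaling to squamous markers gave 8 members, 8 lower and 0 higher, 0 in fatty acid, desaturase and triglyceride synthesis, and 6 other pathway genes. Leaving out 1 animal gave 1 to 17 members, 1 to 16 lower, 0 to 2 higher, 1 to 9 in cholesterol synthesis, 0 to 6 in the latter group and 2 to 11 other pathway genes. The causes of these shifts were not tested. The fits with 1 animal left out also had fewer animals, and the part of this in their shifts was not tested.

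Of 519 comparisons of a member's log2 ratio with its reported value, 433 kept sign and side of the threshold, 69 lost the call, 10 gained it and 7 changed sign, none of the last in a called member. The sign changes were Mvk (0.15 without lab rat 3, 0.23 without woodrat 1), Dhcr7 (-0.14 without woodrat 3), Acaca (-0.042 without lab rat 3) and Dgat1 (-0.00032 with total counts, -0.070 without woodrat 1, -0.028 without lab rat 1). With 1 animal left out, their log2 ratios ran from -0.29 to 0.23 for Mvk, from -0.14 to 1.03 for Dhcr7, from -0.042 to 0.41 for Acaca and from -0.070 to 0.14 for Dgat1. At 3 reads or fewer, as for Scd1, no difference could be detected.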
